A study of Mus musculus with 13 samples.

Results

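The 10 genes described here encode RNA-binding proteins and translational repressors of germ cells: *Dazl*, *Boll*, *Ddx4*, *Cpeb1*, *Ybx2*, *Patl2*, *Zar1*, *Eif4enif1*, *Lsm14b* and *Ddx6*. They were chosen by name, with earlier results of these data known, and found through GENCODE M21 symbols. They are 10 of the 55335 genes in the count table. *Lsm14b* was put in the set because its level was higher in embryos lacking the glucocorticoid receptor (GR, encoded by *Nr3c1*). Its difference between those embryos and their controls is therefore a description, and it was not tested.

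The genes were followed in female germ cells sorted for a *Pou5f1*-GFP transgene from the ovaries of single mouse embryos at E17.5, with 3′ Tag-Seq, which sequences the 3′ ends of polyadenylated transcripts. All 13 embryos carried Tg(Pou5f1-EGFP)2Mnn, and the strain label of every group names the floxed allele Nr3c1tm1.1Jda. In the constitutive cross, WT embryos (n = 3) had intact GR and KO embryos (n = 3) lacked it in the whole body, from a null allele that a β-actin Cre made by removing the floxed exon 3. In the conditional cross, flox embryos (n = 3) were controls and cKO embryos (n = 4) lost GR through Pou5f1tm1.1(cre/Esr1*)Yseg, a tamoxifen-activated Cre expressed from the *Pou5f1* locus, which removes the same exon in germ cells. That Cre allele appears in the strain label of flox embryos too, whereas the study elsewhere calls these controls Cre-negative. All dams of the conditional cross received 125 μg/g tamoxifen at E10.5, so neither cKO nor flox embryos were untreated, and WT and KO embryos had no tamoxifen.

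Fetal oocytes transcribe many mRNAs long before their proteins are needed, and RNA-binding proteins decide when such mRNAs are translated, stored or destroyed. Translation factors of the DAZ family and the cytoplasmic polyadenylation factor CPEB1 bind short elements near the 3′ ends of mRNAs. Repressor complexes built on DDX6, LSM14 proteins, 4E-T and PAT1 proteins hold mRNAs away from the cap-binding machinery in cytoplasmic granules, and Y-box proteins coat the stored mRNA.

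The promoters of *Lsm14b* and *Dazl* are shown because *Lsm14b* was chosen for its KO level and *Dazl* followed it most closely across the embryos. Each run is the RefSeq window on GRCm38.p6 from 250 bases before to 50 bases after the annotated start, 5′ to 3′ on the gene's strand, and capitals mark letters that match the E-box CANNTG. The *Lsm14b* window is chr2:180024737-180025036 on the plus strand, and the *Dazl* window is chr17:50293571-50293870 on the minus strand.
Lsm14b: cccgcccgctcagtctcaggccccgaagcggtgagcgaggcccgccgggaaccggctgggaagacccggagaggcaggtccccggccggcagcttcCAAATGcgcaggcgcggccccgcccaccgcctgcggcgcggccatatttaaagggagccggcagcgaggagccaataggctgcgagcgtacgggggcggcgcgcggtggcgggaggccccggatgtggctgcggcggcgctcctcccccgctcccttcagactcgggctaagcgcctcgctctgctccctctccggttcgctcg
Dazl: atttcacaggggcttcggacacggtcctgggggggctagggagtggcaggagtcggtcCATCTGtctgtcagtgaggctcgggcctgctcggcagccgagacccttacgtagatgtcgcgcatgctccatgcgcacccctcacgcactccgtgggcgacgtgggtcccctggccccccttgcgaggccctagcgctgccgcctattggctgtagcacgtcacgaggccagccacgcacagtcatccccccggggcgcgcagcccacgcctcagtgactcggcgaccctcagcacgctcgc

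RefSeq windows were found for 9 of the 10 genes, with 14 windows in all, and none was found for *Ddx6*. The palindromic GR element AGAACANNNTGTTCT, searched on both strands, matched 0 of the 14 windows, and it matched 0.00913% of the 32851 windows of this length in the table. Its shorter core ACANNNTGT, which lies inside it, also matched 0 windows, against 6.85% of all windows. The half-site AGAACA was present in the windows of 1 gene, *Eif4enif1*, and in 19.0% of all windows. E-box letters were in 9 of the 14 windows and in 72.3% of all windows. Such matches describe letters and not binding, and the letters of a missing motif are only absent from this window.

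Read totals on genes ran from 2048706 to 3674989 per library, with a median of 2483236. A count of 1 was worth 0.272 to 0.486 CPM, a count relative to the TMM-scaled size of its library. Markers of fetal oocytes were detected in full, 10 of 10, with a summed level of 10345 to 17523 CPM. Markers of somatic cells of the fetal ovary were also all detected, 14 of 14, but summed to 117 to 394 CPM. In bulk samples, fewer cells of a type and less RNA per cell cannot be told apart. *Nr3c1* itself averaged 44.6 ± 14.8 CPM in WT and 44.6 ± 25.3 CPM in KO (SD, n = 3 each), 65.8 ± 33.3 CPM in flox (SD, n = 3) and 52.6 ± 18.0 CPM in cKO (SD, n = 4). Counts over the whole gene cannot show the deleted exon. The study reports total *Nr3c1* transcript as depleted in KO ovarian cells at E15.5, by single-cell RNA-seq. The WT and KO means here show no such fall. The reason was not tested, so these counts alone do not check the genotype labels. The study checked the deletion by other means. It reports complete loss of GR staining in KO ovaries at E17.5, and loss in KO by immunoblot and qRT-PCR at earlier stages.

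Of the 10 genes, 8 passed the filter on low counts and entered the fit of 13086 genes, and *Zar1* and *Eif4enif1* had 0 counts in all 13 libraries. A count of 3 in a library was worth 0.816 to 1.46 CPM, which is the level that a count of 0 allows, for counting error only. *Zar1* encodes a maternal RNA-binding protein that accumulates in growing oocytes, and its interval on mm10 (chromosome 5, 72576806 to 72581254, minus strand) is overlapped by no other annotated gene. *Eif4enif1* encodes 4E-T, which binds the cap-binding protein eIF4E and represses the bound mRNA. Its interval (chromosome 11, 3202392 to 3244588, plus strand) lies 100% inside that of *Drg1* on the opposite strand. The deposited table gives each gene a length equal to its whole interval, for 55335 of 55335 genes. *Drg1*, which overlaps it, had 3511 counts over the 13 libraries, so a count of 0 for *Eif4enif1* cannot be read as absence of its transcript. Among the others, 35.9% of the *Patl2* interval and 11.1% of the *Ddx6* interval were shared with other genes. The last 1000 bases of every gene except *Eif4enif1* were free of such overlap.

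The 8 measured genes together took 2955 to 4591 CPM per library, with a median of 3334 CPM. In a 3′ Tag-Seq library each read marks the end of a transcript, so CPM was not divided by length. On this scale the level of *Dazl* ranked 43 and that of *Cpeb1* ranked 69 among the 13086 tested genes. *Lsm14b* ranked 217, *Ddx6* 521, *Ddx4* 746 and *Ybx2* 1056. *Boll*, at rank 5005, and *Patl2*, at rank 10185, were far less abundant. The fitted spread between embryos of 1 group, as a biological coefficient of variation, was 26.7% for *Dazl*, 26.1% for *Cpeb1*, 27.9% for *Ddx6* and 28.0% for *Ddx4*. It was 31.6% for *Lsm14b*, 45.0% for *Ybx2*, 60.2% for *Boll* and 155% for *Patl2*. Only 0.313% to 8.35% of all tested genes had a lower spread than the 5 most precisely measured genes, namely *Cpeb1*, *Dazl*, *Ddx6*, *Ddx4* and *Lsm14b*.

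**Figure D1:**
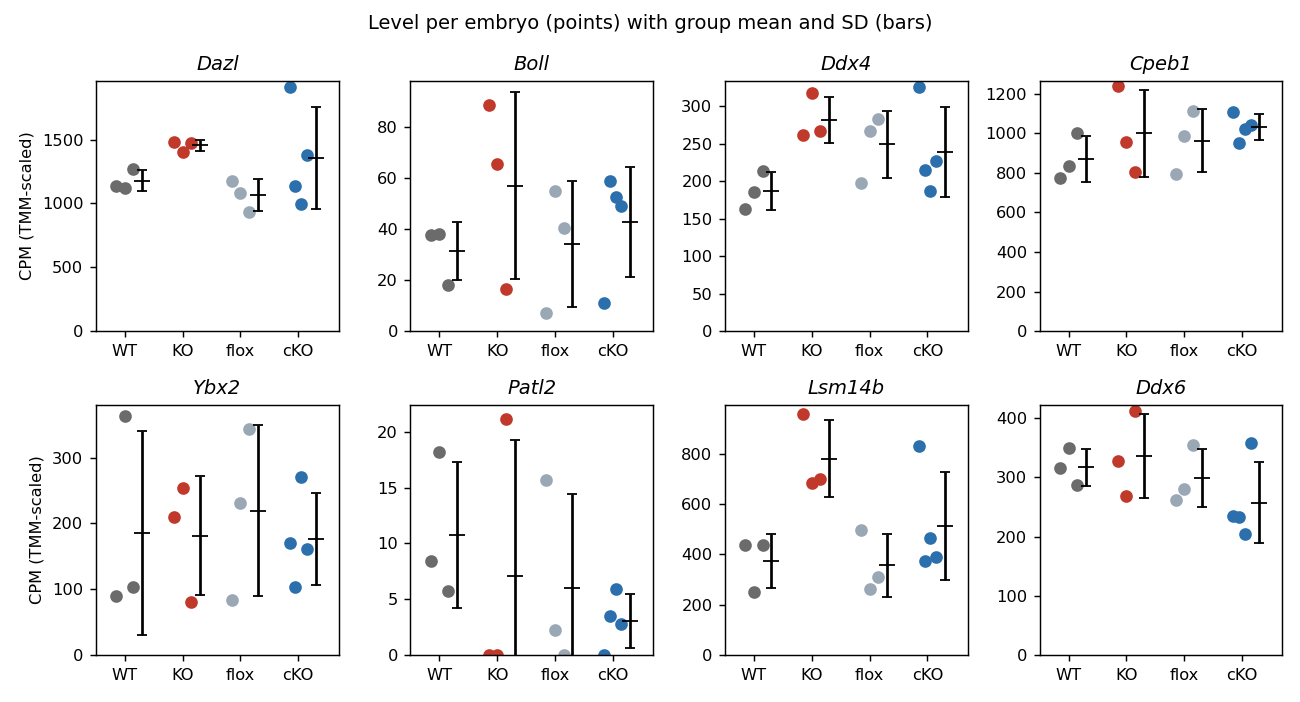
Level of the 8 measured genes in each embryo, in CPM after TMM scaling on a linear axis, for WT, KO, flox and cKO. Points are embryos and bars give the group mean with its SD; the axis starts at 0 and cuts off bars that reach below it. KO points lie above every WT point for *Dazl*, *Ddx4* and *Lsm14b*, and the cKO points overlap those of flox for all 8 genes.

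*Dazl* (chromosome 17, 50279395 to 50293636, minus strand, mm10) encodes the DAZ-family protein that germ cells of both sexes need to develop. Its level was 1134, 1124 and 1271 CPM in the WT embryos and 1482, 1404 and 1475 CPM in the KO embryos. In the conditional cross it was 1179, 1085 and 934 CPM in flox and 1909, 1137, 999 and 1380 CPM in cKO. KO embryos all lay above WT embryos, whereas the cKO embryos spread on either side of the highest flox value. The group means were 1176 ± 82.3 CPM in WT and 1454 ± 43.1 CPM in KO (SD, n = 3 each). In KO against WT its log2 fold change was 0.31 (SE 0.26, 95% CI -0.22 to 0.83), with an adjusted p of 0.981 by edgeR. In the exact permutation test over the embryos, two-sided, p was 0.1, which is the smallest that 3 against 3 embryos can give. In cKO against flox the log2 fold change was 0.35 (SE 0.24, 95% CI -0.14 to 0.84), with an adjusted p of 0.9998 by edgeR and an exact permutation p of 0.286. Without cKO replicate 1, the highest library, this value was 0.16.

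*Boll* (chromosome 1, 55248658 to 55363469, minus strand) encodes the other DAZ-family member on an autosome and is best known from meiosis in the male germ line. WT embryos had 37.6, 38.2 and 18.2 CPM and KO embryos 88.6, 65.6 and 16.7 CPM. The flox values were 7.18, 55.1 and 40.3 CPM, and the cKO values were 11.1, 59.0, 52.5 and 49.0 CPM. The lowest and highest KO embryos lay on either side of all WT embryos, and each of the 4 groups held 1 library well below its others. KO against WT gave a log2 fold change of 0.87 (SE 0.72, edgeR adjusted p = 0.981), and the value was 0.41 without KO replicate 1 and 1.31 when KO replicate 3 was left out. The cKO effect was 0.33 (SE 0.67, edgeR adjusted p = 0.9998) and became -0.15 without flox replicate 1.

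*Ddx4* (chromosome 13, 112598333 to 112652475, minus strand) encodes the mouse VASA homologue, a DEAD-box RNA helicase of germ granules that is widely used as a germ cell marker. It was measured at 163, 185 and 213 CPM in WT and at 262, 317 and 266 CPM in KO. Values were 198, 266 and 283 CPM in flox and 325, 215, 187 and 226 CPM in cKO. Every KO embryo lay above every WT embryo, but the flox controls reached into the KO range. The mean was 187 ± 25.2 CPM in WT and 282 ± 30.7 CPM in KO (SD, n = 3 each). KO against WT thus gave a log2 value of 0.59 (SE 0.29, 95% CI -0.01 to 1.19). By edgeR the unadjusted p was 0.0557 and the adjusted p was 0.847, and the exact permutation p was 0.1. In cKO against flox the log2 fold change was -0.06 (SE 0.27, 95% CI -0.62 to 0.50). The KO effect minus the cKO effect was 0.65 (SE 0.40, edgeR unadjusted p = 0.116, adjusted p = 0.9999), so the effects in the crosses were not shown to differ. Controls of the crosses, flox against WT, differed by 0.41 (SE 0.29, edgeR adjusted p = 1).

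*Cpeb1* (chromosome 7, 81347026 to 81455465, minus strand) encodes the protein that binds the cytoplasmic polyadenylation element and that mouse fetal oocytes need to pass through meiotic prophase. WT embryos had 773, 834 and 1000 CPM, KO embryos 1240, 954 and 805 CPM, flox embryos 793, 984 and 1113 CPM, and cKO embryos 1109, 952, 1024 and 1040 CPM. All 4 groups overlapped. The log2 fold change was 0.20 in KO against WT (SE 0.25, 95% CI -0.31 to 0.72) and 0.10 in cKO against flox (SE 0.23, 95% CI -0.38 to 0.58), with edgeR adjusted p of 1 and 0.9998.

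*Ybx2* (chromosome 11, 69935796 to 69941605, plus strand) encodes the germ cell Y-box protein MSY2, which coats and stabilises stored mRNAs. WT embryos had 89.4, 364 and 103 CPM and KO embryos 209, 254 and 80.0 CPM. Flox embryos had 83.7, 230 and 343 CPM, and cKO embryos 171, 103, 271 and 160 CPM. The WT range spanned all KO embryos but 1, and no group stood apart. The log2 fold change was -0.03 in KO against WT (SE 0.52) and -0.31 in cKO against flox (SE 0.48), and edgeR's adjusted p was 1 and 0.9998. The sign of the KO value rested on single libraries, being 0.91 without WT replicate 2 and 0.34 without KO replicate 3. The cKO value was 0.18 without flox replicate 3.

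*Patl2* (chromosome 2, 122120108 to 122186189, minus strand) encodes an oocyte PAT1-family repressor of translation. Counts were 19, 38 and 21 in WT, 0, 0 and 48 in KO, 37, 5 and 0 in flox and 0, 9, 16 and 8 in cKO. As CPM these were 8.41, 18.2 and 5.71 in WT and 0, 0 and 21.1 in KO, so the KO group held both the lowest values and the highest. Its log2 fold changes, -0.61 for KO against WT (SE 1.96) and -0.96 for cKO against flox (SE 1.85), had 95% confidence intervals of -4.64 to 3.43 and -4.78 to 2.85. A change in either direction was not detectable at this depth and spread. Without KO replicate 3 the KO group had 0 counts, and without WT replicate 2 the KO value was 0.0026. The cKO value was 1.42 without flox replicate 1.

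*Lsm14b* (chromosome 2, 180024987 to 180035465, plus strand) encodes a member of the LSM14 family of messenger ribonucleoprotein components, which oocytes need for meiotic maturation. Its level was 435, 249 and 436 CPM in the WT embryos and 959, 685 and 700 CPM in the KO embryos. The conditional cross gave 497, 263 and 308 CPM in flox and 831, 375, 463 and 389 CPM in cKO. All KO embryos lay above all WT embryos, and in the conditional cross 1 cKO embryo lay above flox while the other 3 lay inside its range. The means were 374 ± 108 CPM in WT and 781 ± 154 CPM in KO (SD, n = 3 each), and 356 ± 124 CPM in flox (SD, n = 3) and 514 ± 215 CPM in cKO (SD, n = 4). KO against WT gave a log2 fold change of 1.06 (SE 0.33), a 2.09-fold difference, which is the value that put the gene in the set. Leaving out each library moved it between 0.85 and 1.20, which describes the chosen value and is no test of it.

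The cKO against flox comparison was not used to choose *Lsm14b* and was tested. The log2 fold change was 0.53 (SE 0.31, 95% CI -0.11 to 1.17), or 1.44-fold, with an unadjusted p of 0.105 and an adjusted p of 0.9998 by edgeR. The exact permutation p was 0.286, where 4 against 3 embryos can reach 0.0286. The value was 0.22 without cKO replicate 1 and 0.85 without flox replicate 1, so either library moved it by over 1.5 times. The interval includes 0 and also the size seen in KO. Flox and WT embryos had like levels of *Lsm14b*, with a log2 difference of -0.07 (SE 0.33, 95% CI -0.76 to 0.62).

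*Ddx6* (chromosome 9, 44604892 to 44640731, plus strand) encodes the DEAD-box helicase at the core of P-bodies and repressor complexes in most cell types. WT embryos had 315, 349 and 287 CPM and KO embryos 328, 269 and 412 CPM. Flox embryos had 261, 280 and 354 CPM and cKO embryos 234, 233, 205 and 358 CPM. The groups overlapped in both crosses, with 3 of the 4 cKO embryos below all flox embryos. The log2 fold change was 0.09 in KO against WT (SE 0.29, 95% CI -0.51 to 0.68) and -0.21 in cKO against flox (SE 0.27, 95% CI -0.77 to 0.35).

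**Figure D2:**
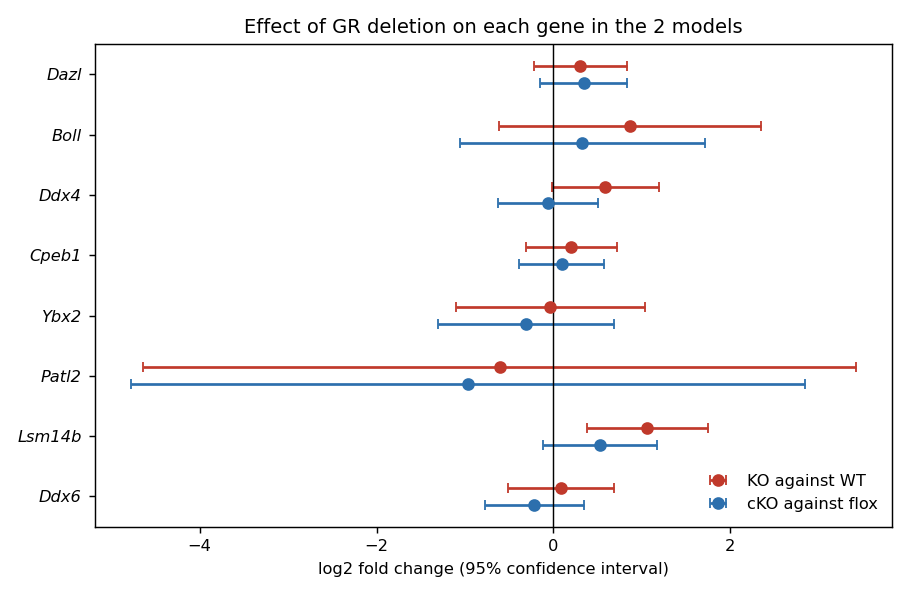
Log2 fold change of each measured gene with its 95% confidence interval from edgeR, for KO against WT (red) and cKO against flox (blue). Only the KO interval of *Lsm14b* lies wholly above 0, which is no test, as the gene was chosen for that difference. The intervals of *Patl2* reach from -4.78 to 3.43.

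Across the genes, 0 of the 7 that could be tested in KO against WT had an adjusted p ≤0.05 by edgeR, and 0 had an unadjusted p under 0.05. The background over all tested genes, by the same edgeR fit, was 0.0% called and 5.82% with an unadjusted p under 0.05. DESeq2 and limma's voom called 0 of these genes, while DESeq2 gave *Ddx4* an unadjusted p of 0.0224 (adjusted p = 0.577) and edgeR with RLE scaling gave it 0.0487 (adjusted p = 0.848). In cKO against flox 0 of 8 were called and 0 had an unadjusted p under 0.05, against 0.0% and 3.19% of all tested genes, and by DESeq2 and voom 0 were called and 0 had such a p. The genes were chosen with earlier results of these data known, so their shares beside those of all genes are descriptions. Without *Lsm14b*, whose direction in KO was fixed by its choice, the KO fold changes lay above 0 for 5 of 7 genes, where 47.9% of all genes did so. In cKO they lay above 0 for 4 of 8 genes, against 49.3%. The median log2 fold change was 0.20 for these 7 genes in KO, or 0.25 with *Lsm14b*, and 0.02 for the 8 genes in cKO, beside medians of -0.03 and -0.01 over all genes. KO embryos lay wholly above WT embryos for 3 of the 8 genes, namely *Dazl*, *Ddx4* and *Lsm14b*, the last by choice, while 3.79% of all tested genes did so. In cKO against flox the groups overlapped for 8 of 8 genes, and 4.97% of all tested genes had groups that did not overlap. The 95% interval lay within a log2 change of ±1 for 3 of the 8 genes in KO and for 4 in cKO, compared with 11.4% and 15.0% of all genes.

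The average of the KO and cKO effects was 0.33 for *Dazl* (SE 0.17, 95% CI -0.03 to 0.69), with an unadjusted p of 0.0746 and an adjusted p of 0.902 by edgeR. Of the 7 genes tested for this average, 0 were called by edgeR, DESeq2 or voom. An unadjusted p under 0.05 was reached by 0 with edgeR, where 5.34% of all genes reached it. With DESeq2 it was reached by 1 and with voom by 1, and the shares of all genes in those fits are not given here. The difference of the effects was called for 0 of 7 genes and had an unadjusted p under 0.05 for 0, where 4.39% of all genes had such a p. Without *Lsm14b* it lay above 0 for 6 of 7 genes, against 47.9% of all genes. Between the controls of the crosses, flox against WT, 0 of 8 genes were called and all groups overlapped, and 0 had an unadjusted p under 0.05, against 0.00764% of all genes called, 3.06% with such a p and 8.29% without overlap. The log2 differences of the controls lay between -0.84 for *Patl2* and 0.41 for *Ddx4*. When the 4 groups were ordered by mean, *Dazl* and *Lsm14b* had the same order of KO, cKO, WT and flox. In this order, and in that of each other measured gene, the ranges of neighbouring groups overlapped.

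**Figure D3:**
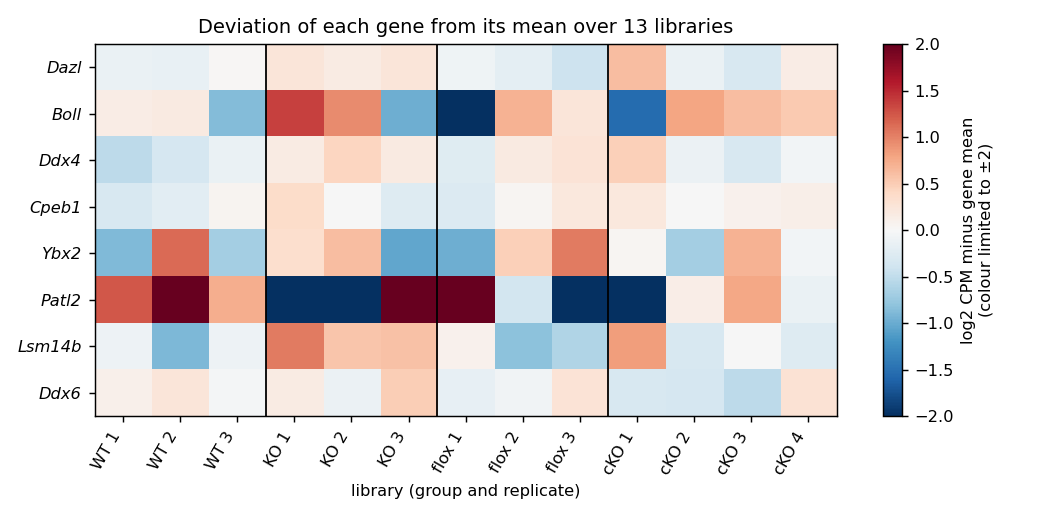
Deviation of each gene from its own mean over the 13 libraries, in log2 CPM, with colour limited to ±2. Columns are libraries by group and replicate. The *Dazl* and *Lsm14b* rows are both red in cKO replicate 1, where *Boll* and *Patl2* are blue, and *Patl2* has the strongest colours, at counts from 0 to 48.

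Over the 13 libraries, which differ in group and depth, the log2 CPM of *Dazl* and *Lsm14b* had a Pearson correlation of 0.77, or 0.64 once group means were removed, the highest of all pairs of the 8 genes. For *Dazl* and *Ddx4* it was 0.53, and 0.57 within groups. *Dazl* and *Boll*, the DAZ-family genes, had -0.30 over all libraries and -0.64 within groups. The most negative value, -0.82, was between *Cpeb1* and *Patl2*, whose counts include 0 in 4 libraries. The cKO replicate 1 library had the highest cKO level of *Lsm14b*, *Dazl*, *Ddx4* and *Cpeb1*. These are descriptions of 13 points that share library and scaling.

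The genes most like *Lsm14b* were sought among 7176 genes that averaged 50 counts or more. Among them were *Cks1b*, a cofactor of cyclin-dependent kinases, with a Pearson correlation of 0.86 over the 13 libraries and 0.77 within groups, and the peptidyl-prolyl isomerase gene *Pin4*, with 0.85 and 0.83. *Rab1a*, a GTPase gene of transport from the endoplasmic reticulum, had 0.85 and 0.70, and the mTORC1 activator gene *Rheb* had 0.85 and 0.67. *Cks1b* averaged 51.1 CPM in WT, 119 CPM in KO, 44.3 CPM in flox and 103 CPM in cKO. As it was picked for its likeness to *Lsm14b*, itself chosen for its KO level, these means are no separate evidence. The genes most like *Ddx4* were *Stoml2*, which encodes a mitochondrial membrane protein, *Cpsf2* and the deacetylase gene *Hdac2*. They had 0.85, 0.81 and 0.80, or 0.72, 0.74 and 0.78 within groups.

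The wider machinery was read from 5 lists of 80 genes, of which 78 were found in the count table and 69 were tested, and *Cpeb2* and *Cnot10* were not analysed here. The lists too were chosen with earlier results of these data known, so their shares are descriptions. By edgeR 0 of 69 were called in either comparison, and an unadjusted p under 0.05 was reached by 4 in KO against WT and by 1 in cKO against flox, where 5.82% and 3.19% of all tested genes reached it. The fold change lay above 0 for 44 of the 69 in KO and for 46 in cKO, where 47.9% and 49.3% of all tested genes did so, with medians of 0.14 and 0.09. KO embryos lay wholly above WT embryos for 7 genes and wholly below for 3, beside 3.79% and 5.67% of all tested genes. In the conditional cross cKO lay wholly above flox for 3 and below for 0, where 2.18% of all tested genes lay above.

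**Figure D4:**
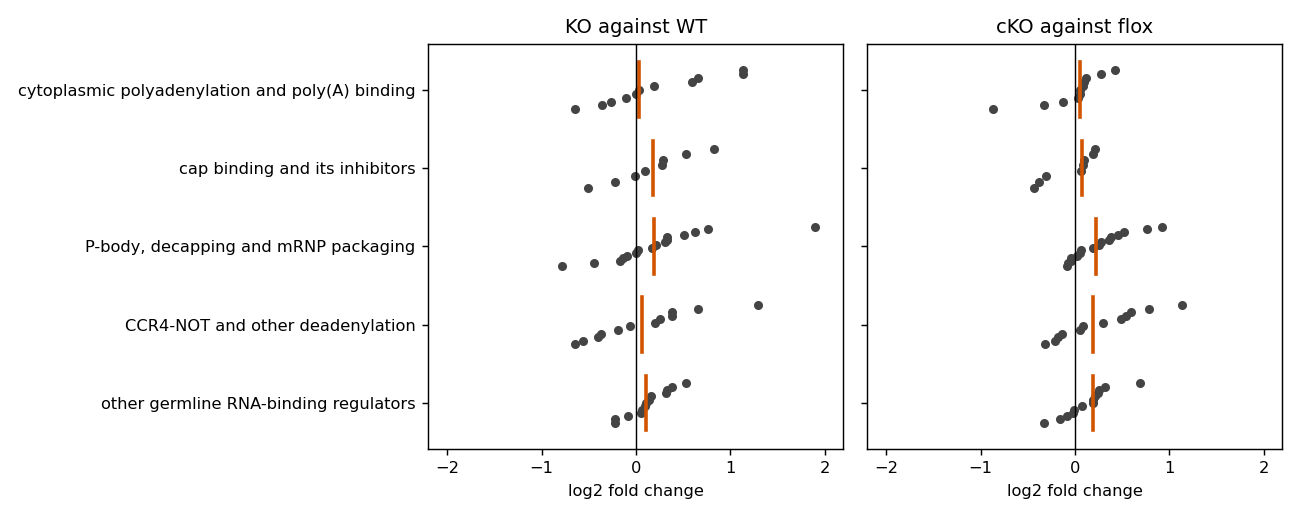
Log2 fold changes of the 60 list genes with a mean of at least 20 CPM, in 5 lists, for KO against WT (left) and cKO against flox (right). Each point is a gene, spread vertically by rank only, and the orange bar is the list's median. Medians run from 0.03 to 0.19 in KO and from 0.05 to 0.22 in cKO.

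Among partners of CPEB1, the cytoplasmic polyadenylation list had 12 tested genes, with medians of 0.02 in KO and 0.05 in cKO. *Cpsf2*, a subunit of the cleavage and polyadenylation specificity factor, was at 40.3, 50.2 and 33.7 CPM in WT and at 74.9, 117 and 80.0 CPM in KO. Its KO embryos all lay above WT, with a log2 fold change of 1.13 (SE 0.48, edgeR unadjusted p = 0.0269, adjusted p = 0.847), and in cKO the value was 0.10 (SE 0.44). *Pabpc1l*, the embryonic poly(A)-binding protein gene, had 82, 0 and 48 counts in WT and 0, 0 and 0 in KO, with an unadjusted p of 0.00637 and an adjusted p of 0.847 by edgeR. Since 1 WT library was at 0 too, no fold is given. The CPEB paralogues *Cpeb3* and *Cpeb4* averaged 102 and 48.0 CPM over all libraries. For *Cpsf1* and *Cpsf4* the cKO values were 0.43 (SE 0.33) and -0.87 (SE 0.75).

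The cap-binding list, around the target of 4E-T, had 10 tested genes, with medians of 0.18 in KO and 0.08 in cKO. *Eif4g2*, a scaffold of cap-independent translation, averaged 774 ± 160 CPM in WT and 1118 ± 226 CPM in KO (SD, n = 3 each), and its KO embryos all lay above WT. The log2 fold change was 0.53 (SE 0.27, edgeR unadjusted p = 0.0581, adjusted p = 0.847). *Eif4ebp1*, an inhibitor of eIF4E, had 0.83 in KO (SE 0.48, edgeR adjusted p = 0.880) and 0.07 in cKO. *Eif4e2*, a cap-binding protein gene, and *Cyfip1*, whose protein binds eIF4E and is part of the WAVE complex, had cKO values of -0.38 (SE 0.37) and 1.15 (SE 1.11).

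The P-body and decapping list, around *Ddx6*, *Lsm14b* and *Patl2*, had 16 tested genes, with medians of 0.19 in KO and 0.22 in cKO. *Dcp1b*, a decapping cofactor, was at 4.87, 10.0 and 22.6 CPM in WT and at 61.6, 27.7 and 51.5 CPM in KO. It had a log2 fold change of 1.89 (SE 0.75, edgeR unadjusted p = 0.0211, adjusted p = 0.847), and of 0.93 in cKO (SE 0.70). *Dcp2*, the decapping enzyme, averaged 60.9 ± 4.39 CPM in WT and 103 ± 1.56 CPM in KO (SD, n = 3 each), with a log2 fold change of 0.76 (SE 0.41, edgeR adjusted p = 0.864). In cKO against flox the *Dcp2* value was -0.08 (SE 0.39). *Lsm14a*, the paralogue of *Lsm14b*, averaged 107 CPM over all libraries. Its KO embryos lay above WT, with a log2 fold change of 0.63 (SE 0.37, edgeR adjusted p = 0.891), and the cKO value was 0.28 (SE 0.35). The Y-box paralogues *Ybx1* and *Ybx3* averaged 333 and 165 CPM and had KO values of 0.32 (SE 0.46) and -0.45 (SE 0.36). *Patl1*, the broadly expressed paralogue of *Patl2*, averaged 41.1 CPM, and its cKO value was 0.76 (SE 0.56). The helicase gene *Ddx3x* had 0.38 in cKO (SE 0.24).

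The deadenylation list had 13 tested genes, with medians of 0.20 in KO and 0.30 in cKO. *Cnot8*, which encodes a catalytic deadenylase subunit of CCR4-NOT, had log2 fold changes of 1.30 in KO (SE 0.60, edgeR unadjusted p = 0.0421, adjusted p = 0.847) and 1.14 in cKO (SE 0.56, edgeR unadjusted p = 0.0588). In the conditional cross it was at 33.4, 23.5 and 22.8 CPM in flox and at 74.5, 59.0, 34.1 and 66.6 CPM in cKO, without overlap. *Cnot6l*, another deadenylase subunit, also had cKO above flox, with 0.54 (SE 0.26, edgeR unadjusted p = 0.0528). *Cnot2*, a scaffold subunit, reached an unadjusted p of 0.0319 by edgeR in cKO, with a log2 fold change of 0.78 (SE 0.34) and groups that overlapped. *Cnot6* had -0.65 in KO (SE 0.38).

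The list of other germline RNA-binding regulators had 18 tested genes, with medians of 0.12 in KO and 0.19 in cKO. *Pum2* and *Fmr1*, which encode repressors that bind the 3′ ends of mRNAs or ribosomes, had KO values of 0.53 (SE 0.32) and 0.32 (SE 0.28). *Nanos1*, a partner of Pumilio proteins, had 0.69 in cKO (SE 0.39). *Msi1*, a Musashi gene, was at 3.80, 0.444 and 0 CPM in flox and at 3.81, 5.47, 6.98 and 16.6 CPM in cKO, from 0 to 9 counts in flox and from 11 to 48 counts in cKO. Of the 5 lists, 7 genes had 0 counts in all libraries, and each of these 7 intervals shared between 5.50% and 100% of its length with other genes.

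Markers of other cell types were read in the same groups, again as sums without TMM scaling. The somatic markers summed to 117 to 181 CPM in WT, 120 to 156 CPM in KO, 137 to 317 CPM in flox and 209 to 394 CPM in cKO, with *Lhx9* at 0 in KO. Erythroid markers, 5 of 7 with counts, summed to 86.2 to 238 CPM in WT, 0 to 156 CPM in KO, 284 to 1263 CPM in flox and 78.4 to 199 CPM in cKO, and *Hbb-y* and *Alas2* were at 0 throughout. Flox embryos thus lay above all cKO embryos for the erythroid sum, and flox replicate 1 was highest. The *Alas2* interval was 100% shared with other genes, so its count of 0 cannot be read as absence of its transcript. Endothelial and immune markers, 6 of 6 with counts, summed to 30.9 to 40.0 CPM in WT and 7.65 to 32.0 CPM in KO, and to 35.9 to 68.2 CPM in flox and 43.6 to 89.1 CPM in cKO. Most of this sum was *Pecam1*, with 1260 counts over all libraries, where the other markers of the list had 5 to 75 each. The sum thus largely follows that gene and is not read here as a level of endothelial or immune cells. The summed oocyte markers overlapped, at 13334 to 14219 CPM in WT, 12870 to 17523 CPM in KO, 10345 to 14256 CPM in flox and 11156 to 15689 CPM in cKO, with *Rec8* at 0 in WT. The part of these markers in the values of *Lsm14b*, *Dazl* and *Ddx4* was not tested.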

How the data were processed

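Female *Pou5f1*-GFP+ germ cells of 13 embryos in 4 groups were profiled by 3′ Tag-Seq (QuantSeq FWD). The authors trimmed the reads, aligned them to mm10 with STAR 2.6.0 and counted them per gene with featureCounts 1.6.3, per the labels and the study's methods, and deposited raw counts without normalization. The strand setting of the counting is not given in the sources used here. Gene symbols came from GENCODE M21, which matched 54587 of 55335 genes. The authors also deposited comparison tables of KO against WT and cKO against flox, with fold changes and p-values from edgeR 3.28.1 and limma 3.42.2, which were not used.

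Counts were tested with edgeR 4.0.16 in R 4.3.3: filterByExpr (minimum count 10, minimum total 15), TMM normalization, 1 mean per group over all 13 libraries, no covariate, the quasi-likelihood F test and Benjamini-Hochberg adjustment over 13086 genes, called at an adjusted p ≤0.05. The common biological coefficient of variation was 0.841. CPM are given per embryo, with a prior count of 2 for log2 CPM. Standard errors and 95% intervals come from the fit. Single genes were also compared by a two-sided exact permutation test of mean log2 CPM. The scripts were tested on simulated data. Each library is 1 embryo, litters are not given in the sources used here, and no molecular identifiers are described, so depth covers counting error only.

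The 10 genes and the 5 lists were chosen with earlier results of these data known. Beside the 10 genes, the text names from each list up to 2 genes with the lowest p in each comparison, the 5 genes most like *Lsm14b*, of which 1 is not reported here, and the 3 most like *Ddx4*. Paralogues of the 10 genes were named after their values were seen. Alternatives were RLE and upper-quartile scaling, DESeq2 1.42.0, voom (limma 3.58.1), no filter beyond 1 count, at least 10 counts in every library, a fit of the compared groups alone, a block for the replicate number, and leaving out 1 library at a time.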

Additional observations from a re-analysis of the deposited data

How the results depend on the processing

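Over 24 values of the measured genes, 466 of 492 alternative values kept their direction and, where tested, their side of the threshold. For the untested *Lsm14b* values, keeping meant the same direction and a shift smaller than the SE. Calls were counted over the tested genes only, without *Lsm14b* where it was not tested. Of these, 0 were called under every alternative that was run. Their lowest adjusted p was 0.577, for *Ddx4* in KO against WT by DESeq2. Direction reversed for *Ybx2* in KO against WT, to 0.0090 without the filter, 0.19 with voom and 0.15 with the replicate block, and for the *Patl2* difference of effects, to -2.93 with voom and -0.064 with the block. Leaving out each library in turn gave values of both signs. In KO against WT these ran from -0.35 to 0.91 for *Ybx2*, -7.76 to 0.0026 for *Patl2* and -0.076 to 0.23 for *Ddx6*. In cKO against flox they ran from -0.15 to 0.86 for *Boll*, -0.021 to 0.22 for *Cpeb1*, -1.53 to 1.42 for *Patl2*, -0.23 to 0.049 for *Ddx4* and -0.70 to 0.18 for *Ybx2*. For the difference of effects they ran from -0.16 to 0.15 for *Dazl*, -0.074 to 0.24 for *Cpeb1*, -0.20 to 1.22 for *Ybx2* and -6.82 to 0.95 for *Patl2*. The count of all genes called moved more. Without the filter it was 15 in KO against WT, 11 in cKO against flox, 17 for the average, 8 for the difference and 15 in flox against WT, and with DESeq2 it was 12, 5, 14 and 10 for the first 4 of these. With at least 10 counts in every library it was 1 for the average and 0 in flox against WT. On leaving out single libraries it ran from 0 to 2 in KO against WT (2 without WT replicate 3), 0 to 1 for the average (1 without flox replicate 1) and 1 to 4 in flox against WT (4 without WT replicate 3). The cause of these shifts was not tested. Embryos with the same replicate number had correlations of their deviations from -0.05 to 0.06 over 18 pairs. Embryos of different groups and numbers had -0.07 to 0.08 over 45 pairs. The number thus showed no pairing, but over all tested genes this check could miss a shared litter or batch. With the number as a block, 0 genes were called in KO against WT and 0 in cKO against flox. Depth limits *Patl2* most, where a library held 0 to 48 counts.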

Other observations

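KO replicate 3 and flox replicate 1 shared a pattern, chosen after the values were seen. *Boll* was lowest of its group in both, at 16.7 and 7.18 CPM, as was *Ybx2*, at 80.0 and 83.7 CPM. *Patl2* was highest of its group in both, at 21.1 and 15.6 CPM. These libraries had 2483236 and 2477574 counts, near the median of all libraries.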
